A study of Mus musculus with 24 samples.

Results

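Cohesin is a ring-shaped complex that extrudes chromatin loops, and CTCF is a zinc-finger protein that binds DNA and halts it. Rad21 is the kleisin subunit that closes the cohesin ring. In most mammalian cells cohesin peaks lie largely at CTCF-bound sequence. Smaller peaks are also known at active promoters and enhancers, where the NIPBL-MAU2 loader is found. In B-cell precursors, loop extrusion is known to bring antibody gene segments to the RAG endonuclease. The comparison described here asked where Rad21 peaks lay once CTCF had been degraded.

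The data were 6 Rad21 chromatin immunoprecipitation (ChIP-seq) peak lists, of 24 samples and 16 peak lists in the series. All came from v-Abl transformed mouse pro-B lines, which are B-cell precursors immortalised by a viral Abl kinase. Every group was RAG2 deficient, carried the Emu-Bcl2 survival transgene and received 3 µM of STI-571, an Abl kinase inhibitor that stops these cells from dividing, for 4 days. The control group was the parental line without IAA (3 libraries). The other group was the line labelled CTCFdegron, in which CTCF carries a tag that causes its degradation when the auxin IAA is present. It received 500 µM of IAA for 6 h before and then throughout the STI-571 step (3 libraries). Line and IAA therefore changed together and cannot be told apart. The labels do not say whether a line was a single clone, or whether same-group libraries came from separate cultures, so p-values measure only the spread between these libraries, which may be technical.

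Members were chosen by position and overlap alone. A Rad21 site is a union of overlapping mouse peaks of the 3 parental lists, and the 25027 sites with a peak in all 3 of them are called parental sites. A parental site was kept in a CTCF-degron list when a peak of that list overlapped it by at least 1 bp. A promoter site or peak lies within 1000 bp of a protein-coding transcript start, and all others are called distal. A Rad21 site or peak has a CTCF site when it overlaps one of the 33715 merged regions with a peak in all 3 CTCF ChIP lists of parental cells. Those without a CTCF site were not all free of CTCF peaks, since only 15.9% of such promoter sites and 28.2% of such distal sites had no peak in any parental CTCF list. The lists give no read counts, so sequencing depth is unknown, and a missing peak means only that none was called.

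The libraries differed in length of list and in spike-in. Mouse peaks numbered 67810, 43925 and 29724 in parental replicates 1, 2 and 3, and 35224, 25949 and 15690 in the CTCF-degron replicates. Replicates 2 and 3 held added human HCT116 colorectal carcinoma cells, and replicate 1 held none. Human peaks there numbered 9640 and 1748 in the parental lists and 1675 and 319 in the CTCF-degron lists, so they were also fewer in the CTCF-degron libraries. Cut at equal numbers of human peaks (319 per list), mouse peaks numbered 14264 and 12954 in parental and 9003 and 15690 in CTCF-degron replicates 2 and 3, so the CTCF-degron list was shorter in replicate 2 and longer in replicate 3. The log2 difference in mouse peak number was -0.88 as deposited (exact permutation p = 0.2, adjusted 0.2812) and -0.19 with that cut (exact permutation p = 1). No pair of lists was a repeated library, since at most 2 peak intervals were identical between any pair.

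The first site of each class by the naming rule is shown, and Mrc1, Sh3bp5, Ccdc110, Pmepa1 and Actr3 were added after their values were seen because they hold a motif. The sequences show the kinds of site the results turn on. Each is the reference sequence of mouse build mm9 (NCBIM37), plus strand, around the middle of the site or around its CTCF core match. Capitals mark a match, on either strand, to the CTCF core CCANNAGNNGGC or to the GC box GGGCGG, bound by Sp-family factors of housekeeping promoters. A match is a description and not a measured binding site. The core occurred in 1.57% of 300 bp windows across the genome, and the GC box in 45.2% of 300 bp windows around protein-coding starts. The first group holds distal sites with a CTCF site that had no Rad21 peak in any CTCF-degron list. They lie in Stat3 (chr11:100754830-100755029), in Mrc1 (chr2:14217194-14217293) and in Sh3bp5 (chr14:32199286-32199385). Stat3 encodes a cytokine-activated transcription factor and Mrc1 the mannose receptor. The Mrc1 match lies outside the central 300 bp of its site, so the motif shares given later count that site as without the core.
Stat3 site, lost: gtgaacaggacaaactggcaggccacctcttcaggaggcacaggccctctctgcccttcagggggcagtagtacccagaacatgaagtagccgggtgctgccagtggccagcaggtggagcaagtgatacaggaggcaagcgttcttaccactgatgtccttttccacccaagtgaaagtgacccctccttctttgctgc
Mrc1 site, lost: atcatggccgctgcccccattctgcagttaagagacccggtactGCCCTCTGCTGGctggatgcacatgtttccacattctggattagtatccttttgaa
Sh3bp5 site, lost: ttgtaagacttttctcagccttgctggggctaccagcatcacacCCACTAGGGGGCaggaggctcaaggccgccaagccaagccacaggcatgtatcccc

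The second group holds sites with a CTCF site that kept Rad21 in all 3 CTCF-degron lists, at the promoter of Ccdc110 (chr8:47020261-47020360) and in an intron of Pmepa1 (chr2:173055489-173055588). They carry the same core as the lost Mrc1 and Sh3bp5 sites, whereas the printed Stat3 stretch holds no match. A lost promoter site near Tcea2 (chr2:181413592-181413791), a transcription elongation factor gene, stands beside them and holds no CpG in the printed stretch.
Ccdc110 site, kept: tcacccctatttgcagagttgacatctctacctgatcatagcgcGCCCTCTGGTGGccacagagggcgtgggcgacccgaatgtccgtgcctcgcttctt
Pmepa1 site, kept: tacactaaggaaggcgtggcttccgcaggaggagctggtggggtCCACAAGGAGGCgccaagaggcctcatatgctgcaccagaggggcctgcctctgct
Tcea2 site, lost: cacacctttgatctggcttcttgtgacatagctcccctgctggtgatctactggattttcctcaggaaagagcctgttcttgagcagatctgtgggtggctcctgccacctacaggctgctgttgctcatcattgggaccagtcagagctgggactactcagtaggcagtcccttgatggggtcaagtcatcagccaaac

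The third group holds sites without a parental CTCF site that kept Rad21 in all 3 lists. They are the promoter of Tbl1xr1 (chr3:21976247-21976446), a subunit of the NCoR corepressor, an intergenic site 138786 bp from its start (chr3:21835077-21835276), and the promoter of Actr3 (chr1:127331650-127331849), a subunit of the Arp2/3 actin nucleator. The Tbl1xr1 promoter holds a core match, and a CTCF peak was called there in 2 of the 3 parental CTCF lists. The distal Tbl1xr1 site had CTCF peaks in all 3 parental lists (4.04, 3.54 and 4.41) that did not make up a shared CTCF site. Actr3 had them in parental replicates 1 and 3 (3.87 and 3.82). In CTCF-degron cells all 3 CTCF lists had a peak at the distal site (5.74, 5.81 and 4.695) and at Actr3 (5.68, 5.66 and 4.845). The distal Tbl1xr1 site holds 13 CpG dinucleotides in 200 bp and the Actr3 stretch 10.
Tbl1xr1 promoter, kept: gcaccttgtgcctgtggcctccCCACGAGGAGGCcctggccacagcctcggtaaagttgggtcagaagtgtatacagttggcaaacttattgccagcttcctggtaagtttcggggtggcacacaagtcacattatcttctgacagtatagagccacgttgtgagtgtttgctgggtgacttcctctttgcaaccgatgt
Tbl1xr1 distal site, kept: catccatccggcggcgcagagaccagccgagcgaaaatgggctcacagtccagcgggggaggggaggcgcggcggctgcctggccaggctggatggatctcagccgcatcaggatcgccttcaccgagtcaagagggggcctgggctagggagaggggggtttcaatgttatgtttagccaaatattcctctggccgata
Actr3 promoter, kept: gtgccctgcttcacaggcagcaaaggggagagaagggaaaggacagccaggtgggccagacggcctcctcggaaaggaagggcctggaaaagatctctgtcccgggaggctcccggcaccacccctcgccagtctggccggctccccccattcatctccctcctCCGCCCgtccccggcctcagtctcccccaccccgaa

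The last group shows a gained site, with a Rad21 peak in all 3 CTCF-degron lists and in no parental list, 22249 bp from Gcom1 (chr9:71462549-71462748). Beside it are kept sites whose fold enrichment, the authors' value for each peak, lay between 1576 and 34350 in every list, at Gm10800 (chr2:98506841-98507040) and in an intron of Chl1 (chr6:103599071-103599270). Their sequence is AT-rich, at 34.5% and 32.5% GC. The Gm10800 stretch is of the major satellite type and the Chl1 stretch of the minor satellite type, the repeats found around and at mouse centromeres.
Gcom1 site, gained: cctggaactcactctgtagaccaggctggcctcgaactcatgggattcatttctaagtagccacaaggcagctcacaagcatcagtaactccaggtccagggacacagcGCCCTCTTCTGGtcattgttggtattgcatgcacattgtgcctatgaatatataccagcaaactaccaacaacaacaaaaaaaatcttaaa
Gm10800 site, kept: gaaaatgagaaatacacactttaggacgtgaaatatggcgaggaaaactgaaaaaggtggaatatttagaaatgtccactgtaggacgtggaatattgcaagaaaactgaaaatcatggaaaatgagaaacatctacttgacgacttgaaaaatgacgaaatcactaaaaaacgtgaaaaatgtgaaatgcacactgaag
Chl1 site, kept: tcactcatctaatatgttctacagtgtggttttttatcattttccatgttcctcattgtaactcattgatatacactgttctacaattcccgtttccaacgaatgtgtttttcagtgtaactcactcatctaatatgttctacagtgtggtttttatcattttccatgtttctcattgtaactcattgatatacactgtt

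The first question was where Rad21 peaks lay in each group. In the lists as deposited, distal peaks at parental CTCF sites made up most of the difference in mean peak number, a difference that was smaller and differed in sign between replicates at equal human peaks. They numbered 26395, 23160 and 17710 in the parental lists and 9229, 7885 and 5004 in the CTCF-degron lists. Every CTCF-degron list lay below every parental list, with means of 22422 ± 4389 and 7373 ± 2159 (SD, n = 3 each), and each CTCF-degron list had 0.35, 0.341 and 0.283 of the peaks of its same-numbered parental list. Promoter peaks without a CTCF site numbered 7406, 5025 and 2954 in the parental lists and 7028, 6146 and 3991 in the CTCF-degron lists. These groups overlapped, and the CTCF-degron list was lower in the first pair and higher in the other two.

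The other classes fell between these. Promoter peaks with a CTCF site numbered 4951, 4500 and 3489 in parental and 3937, 3660 and 2680 in CTCF-degron lists, or 0.795, 0.813 and 0.768 of the partner list, with overlapping groups. Distal peaks without a CTCF site numbered 28186, 10736 and 5186 in parental and 14434, 7770 and 3661 in CTCF-degron lists. Their spread within the parental group was wider than the difference between groups. Human peaks of the spike-in pairs stood at 0.174 and 0.1825 of the parental number, below every mouse class.

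**Figure D1:**
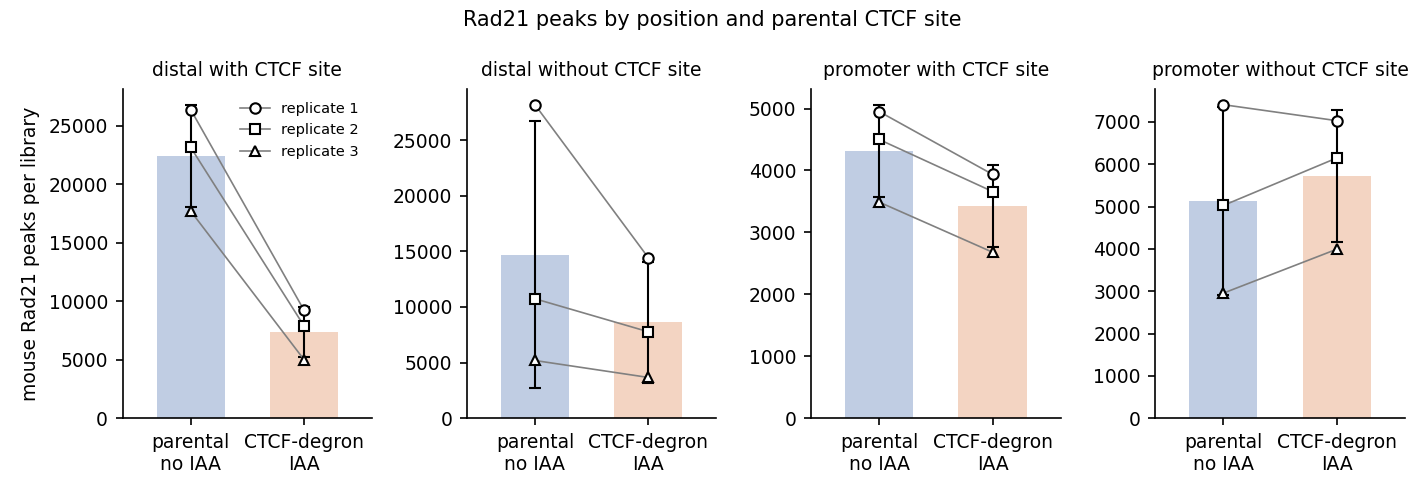
Mouse Rad21 peaks per library (y axis, number) in the parental and CTCF-degron groups (x axis), in 4 classes by position and by presence of a parental CTCF site (written CTCF in the plot). Bars are means, error bars SD over 3 libraries, and grey lines join libraries of the same number, from 26395 to 9229 for distal peaks with a CTCF site in replicate 1 and from 2954 to 3991 for promoter peaks without a CTCF site in replicate 3.

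All promoter peaks together numbered 12357, 9525 and 6443 in the parental lists and 10965, 9806 and 6671 in the CTCF-degron lists. The groups overlapped almost entirely, with means of 9442 ± 2958 and 9147 ± 2221 (SD, n = 3 each). As a share of the list, promoter peaks were 18.5%, 21.9% and 22.0% in parental and 31.7%, 38.5% and 43.5% in CTCF-degron libraries. The share was 17.1 percentage points higher in CTCF-degron libraries with no overlap of the groups (p = 0.1 by exact two-sided permutation, the lowest value for 3 and 3 libraries, and 0.225 after Benjamini-Hochberg adjustment over the 9 tests made here). Peaks in introns went the other way, at 31.5% ± 1.57 of parental and 22.0% ± 3.59 of CTCF-degron lists (SD, n = 3 each). Cutting the spike-in lists at equal numbers of human peaks gave a difference of 26.5 points, and shortening every list to the shortest gave 27.8.

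The promoter peaks sat close to the start itself. Within 250 bp of the nearest start lay 6951, 5718 and 3580 peak centres in the parental lists and 7440, 7226 and 4904 in the CTCF-degron lists. Each CTCF-degron list had more such peaks than its same-numbered parental list, although the groups overlapped. They made up 10.4%, 13.2% and 12.2% of the parental lists and 21.5%, 28.4% and 31.98% of the CTCF-degron lists. From 1 to 5 kb away lay 9418, 6074 and 4156 peaks in the parental and 4546, 2902 and 1503 in the CTCF-degron lists, with overlapping groups. As a share of the list these were 14.1%, 13.99% and 14.2% against 13.1%, 11.4% and 9.8%, a smaller contrast than in the numbers.

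**Figure D2:**
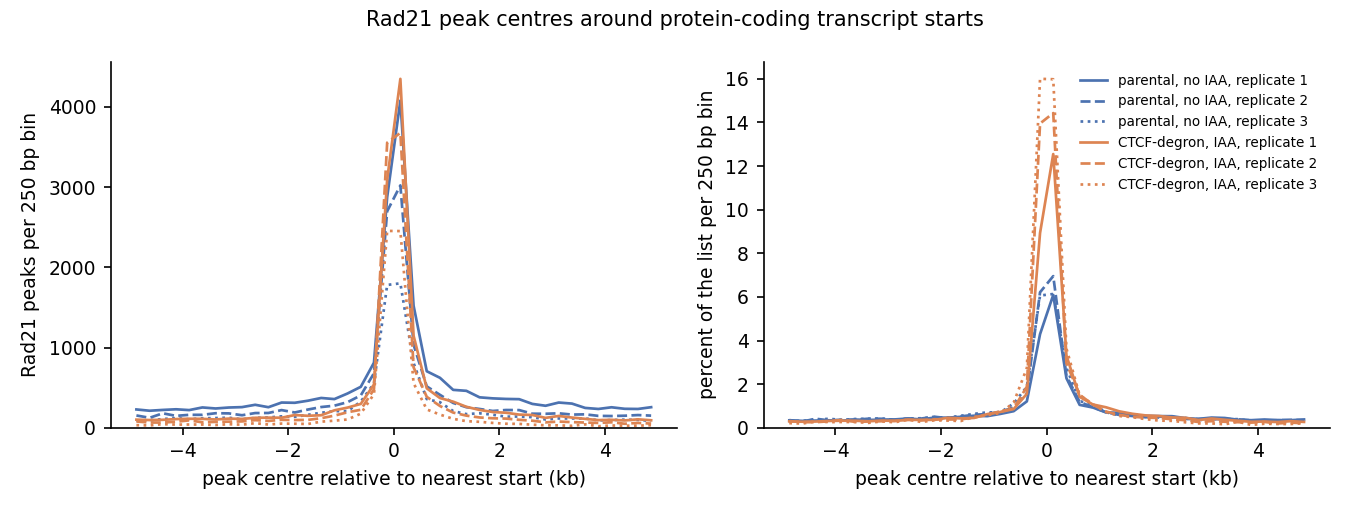
Rad21 peak centres around the nearest protein-coding transcript start (x axis, kb, positive downstream), as peaks per bin (left) and percent of the list (right), 1 line per library. The peak at the start is as tall or taller in the CTCF-degron libraries, with 7440, 7226 and 4904 peaks within 250 bp against 6951, 5718 and 3580, while the flanks are lower in number than in the same-numbered parental list.

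Counted by gene, 10546, 8053 and 5525 protein-coding genes had a promoter peak in the parental lists and 9904, 9007 and 6264 in the CTCF-degron lists. The groups overlapped and the mean log2 difference was 0.08 (exact two-sided permutation p = 0.8, adjusted 0.8). Its sign was not stable, since peaks with a −log10 q of 3 or more gave -0.46 and leaving out parental replicate 3 gave -0.16. Lists cut at equal human peaks gave 1.41. Of 22247 genes, 5323 (23.9%) had a promoter peak in all 3 parental lists and 6180 (27.8%) in all 3 CTCF-degron lists. The 3883 genes in all 6 lists were 73.0% of the parental and 62.8% of the CTCF-degron genes. Only 273 genes had a promoter peak in every parental and no CTCF-degron list, and 47 genes the reverse.

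CTCF core matches became rarer in the lists. The core lay within the central 300 bp of 22.4%, 26.6% and 27.7% of parental peaks and of 10.2%, 12.9% and 12.7% of CTCF-degron peaks. Groups were separate, with a difference of -13.65 percentage points (p = 0.1 by exact permutation, adjusted 0.225). All 6 shares were above the 1.57% of genome windows. With the stricter CTCF consensus the difference was -4.28 points, in the same direction.

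The second question was which parental sites kept Rad21. Of the 25027, 56.8%, 52.6% and 36.0% had a peak in CTCF-degron replicates 1, 2 and 3. A peak was absent from all 3 lists at 10377 sites (41.5%) and present in all 3 at 8888 (35.5%). The other sites had a peak in 1 list (1795) or 2 lists (3967). Replicate 3 had the shortest list and the fewest kept sites. The parental lists gave the same order when each was set against the sites shared by the other two parental lists, at 99.95%, 97.3% and 64.8%.

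Promoter sites kept Rad21 more often than distal sites. At promoters, 506 of 5199 sites (9.73%) lacked Rad21 in all 3 CTCF-degron lists and 67.8% kept it in all 3. At distal sites, 9782 of 19545 (50%) lacked it in all 3 lists and 26.8% kept it in all 3. Promoter sites were kept at 89.9%, 86.3% and 68.2%, and distal sites at 47.9%, 43.5% and 27.3%. The difference was 42.0, 42.8 and 40.8 percentage points, or 41.9 ± 0.998 (SD, n = 3), higher at promoters in 3 of 3 libraries (p = 0.25 by an exact sign-flip permutation, the lowest that 3 values allow, adjusted 0.2812). Between parental lists the same difference was -0.35 ± 0.598 points (SD, n = 3). It was 25.3 ± 13.9 points with a −log10 q of 3 or more and 27.9 ± 21.3 when a site had to be covered for at least 50% of its length (SD, n = 3 each).

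CTCF status and position combined gave a graded order. Distal sites with a CTCF site (16478) were kept at 41.6%, 38.4% and 24.5%, the lowest class in every library. Distal sites without a CTCF site (3067) were kept at 81.6%, 70.7% and 42.8%. Promoter sites with a CTCF site (3474) were kept at 85.7%, 81.7% and 65.8%. Promoter sites without a CTCF site (1725) were kept at 98.4%, 95.5% and 73.0%, the highest class in every library, and 26 of them were lost from all 3 lists. Set against sites shared by the other 2 parental lists, the parental lists themselves reached 99.95%, 91.8% and 47.9% in this last class. These values lay below the CTCF-degron values in replicates 2 and 3, but the sites differ. The baseline sites needed a peak in only 2 parental lists (38614 sites in all without replicate 3), the parental sites in all 3. A lower baseline can therefore come from the choice of sites. For distal sites with a CTCF site the parental values were 99.99%, 99.03% and 74.7%, above the CTCF-degron value in each replicate. The 274 promoter sites with no peak in any parental CTCF list were kept at 97.4%, 91.6% and 56.9%, and the 865 such distal sites at 79.5%, 64.9% and 30.3%.

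**Figure D3:**
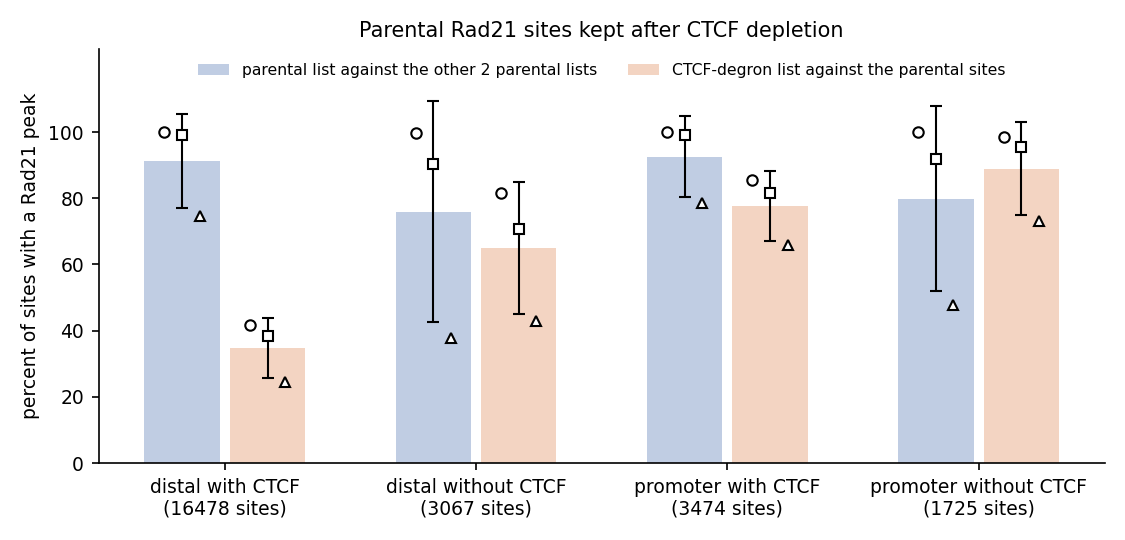
Percent of parental Rad21 sites with a peak (y axis) in each of 4 classes (x axis, with the number of sites). Blue is each parental list against sites shared by the other 2 parental lists. Orange is each CTCF-degron list against the parental sites, a different set. Bars are means, error bars SD over 3 libraries (some extend past 100%), and circles, squares and triangles replicates 1, 2 and 3. The gap is widest for distal sites with a CTCF site, kept at 41.6%, 38.4% and 24.5%.

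Among sites with a CTCF site, promoters were kept 42.9 ± 1.41 percentage points more often than distal sites (SD, n = 3). Without a CTCF site the gap was 24.0 ± 6.69 points. Between parental lists the gaps with and without a CTCF site were 1.26 ± 2.12 and 3.91 ± 5.41 points (SD, n = 3 each). The latter was 10.1 points in replicate 3. The gap at CTCF sites was present in every quartile of parental fold enrichment rank, at 56.7 ± 5.94 points in the weakest, 53.8 ± 3.01 and 45.1 ± 0.622 in the middle quartiles and 26.8 ± 3.93 in the strongest. In that strongest quartile distal sites with a CTCF site were kept at 52.4% ± 10.7, against 24.3% ± 8.12 in the weakest (SD, n = 3 each). Strong promoter sites with a CTCF site and weak ones were kept at 79.2% ± 7.18 and 81.0% ± 13.9 (SD, n = 3 each).

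Site width moved with all of this. Kept sites were wider, and by quartile of width 19.2%, 33.6%, 55.9% and 85.2% were kept on average from the narrowest to the widest. Promoter sites with and without a CTCF site had median widths of 1229 and 1266 bp, against 758 and 943 bp for distal sites. A wider site is more easily overlapped by 1 bp. Within width quartiles promoters were still kept more often, by 28.7 ± 5.77, 31.7 ± 4.60, 32.3 ± 1.14 and 13.2 ± 3.95 points from the narrowest to the widest (SD, n = 3 each).

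Rad21 was kept most often where CTCF peaks remained. The CTCF ChIP lists of CTCF-degron cells still held a peak in all 3 at 2167 of the distal sites with a CTCF site, and Rad21 was kept there at 99.9%, 99.4% and 94.0%. Where none of the 3 CTCF lists had a peak (11536 distal sites), Rad21 was kept at 17.4%, 13.9% and 3.26%. At promoters with no CTCF peak left (1064 sites) it was kept at 54.4%, 43.9% and 25.0%, or 29.6 ± 7.63 points more often (SD, n = 3). Where CTCF was still called in all 3 lists, promoters and distal sites differed by -0.72 ± 1.45 points, less than the spread between libraries.

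**Figure D4:**
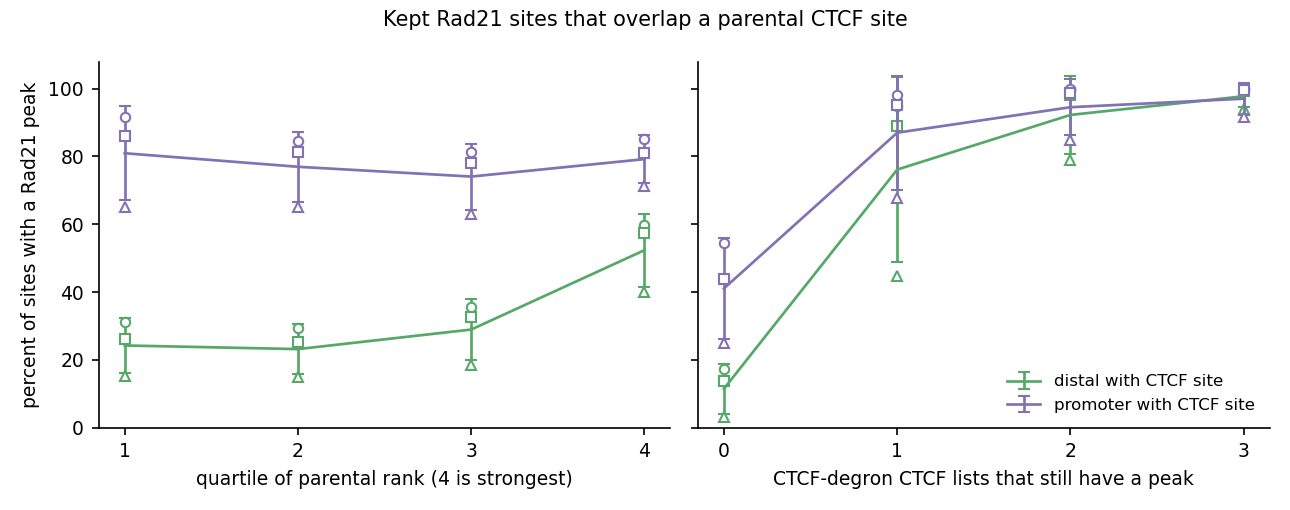
Percent of parental Rad21 sites with a CTCF site that kept a peak (y axis), by quartile of parental fold enrichment rank (left) and by the number of CTCF lists of CTCF-degron cells with a peak left (right). Lines are means, error bars SD over 3 libraries, and symbols the replicates; distal sites with no CTCF peak left lie at 17.4%, 13.9% and 3.26%, and with a peak in all 3 lists at 99.9%, 99.4% and 94.0%.

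Kept and lost sites also differed in sequence. A CTCF core lay in 40.3% of the 10288 annotated sites lost from all 3 lists and in 16.5% of the 8761 kept in all 3. Sites with the core were kept 23.4 ± 2.76 percentage points less often than sites without it (SD, n = 3; exact sign-flip permutation p = 0.25, adjusted 0.2812). Among distal sites with a CTCF site, those with the core were kept at 36.4%, 34.4% and 19.8%, and those without it at 44.9%, 41.0% and 27.4%. With spike-in lists cut at equal human peaks the overall difference was -3.46 ± 2.55 points (SD, n = 2), and with lists shortened to the shortest -7.67 ± 1.61 points (SD, n = 3).

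Kept sites were richer in GC and CpG. Median GC content in the central 300 bp was 52.0% at kept and 45.7% at lost sites, and the median observed-to-expected CpG ratio was 0.403 and 0.185. The GC box was present at 29.3% of kept and 5.67% of lost sites. The ETS motif CCGGAAG, bound by a large family that includes PU.1, was present at 7.74% and 1.40%, against 10.7% of windows at protein-coding starts. The NRF1 motif GCGCNTGCGC, of a regulator of nuclear-encoded mitochondrial genes, was present at 2.80% and 0.097%, against 5.53% at starts. Kept sites were also more often promoters, at 40.2% against 4.92% of lost sites. Among distal sites with a CTCF site, which held 9252 of the lost sites, the contrast was smaller, with a GC box at 11.3% of kept and 5.20% of lost sites, the ETS motif at 2.53% and 1.37%, median GC of 48% and 45.7%, and median CpG ratios of 0.273 and 0.183. Among promoter sites with a CTCF site it was larger, with a GC box at 54.9% of kept and 15.2% of lost sites and median CpG ratios of 0.790 and 0.282. That class held 480 lost and 2273 kept sites.

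The share of sites called after depletion of Rad21 itself also moved with these classes. In the Rad21degron line with IAA, in which Rad21 itself is the degraded protein, replicates 1 and 2 had a peak at 2.46% and 1.35% of distal sites with a CTCF site, but at 20.3% and 3.01% of promoter sites without a CTCF site. CTCF lists of CTCF-degron cells likewise had a peak in all 3 at 18.55% of these promoters. The part of such calls in the promoter results was not tested beyond the following. Among the sites (2065 promoter, 12526 distal) called in both Rad21degron lists without IAA and in neither with IAA, promoters were still kept more often, by 33.9, 33.9 and 37.1 points (35.0 ± 1.86, SD, n = 3). For the sites of that kind without a CTCF site (359 promoter, 1239 distal), the gap was 4.57, 8.90 and 22.4 points, or 11.95 ± 9.29 (SD, n = 3), against 24.0 ± 6.69 for all sites without a CTCF site.

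Autosomes differed little from each other. Their mean percent kept ran from 43.4% to 51.5%, lowest on chromosome 18 and highest on chromosome 11. The mean was 38.7% ± 11.1 (SD, n = 3) on the X chromosome. The X was the lowest in every library, at 47.7%, 42.0% and 26.2%, against 50.9%, 48.0% and 31.3% on chromosome 18.

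The third question was how the peaks were ranked within each list. The authors' fold enrichment is the peak's own value and was used here only within its list. Among the 5000 highest peaks, 99.98%, 100% and 99.88% overlapped a parental CTCF site in the parental lists, against 79.9%, 82.9% and 68.2% in the CTCF-degron lists. Promoter peaks were 7.80%, 8.50% and 10.9% of the 5000 in parental and 29.2%, 25.3% and 37.0% in CTCF-degron lists. Neither pair of groups overlapped.

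The very top of the lists changed less. Among the 1000 highest peaks, all parental peaks and 99.4%, 99.9% and 95.5% of CTCF-degron peaks overlapped a parental CTCF site, a difference of -1.73 points (p = 0.1 by exact permutation, adjusted 0.225). Leaving out CTCF-degron replicate 3 gave -0.35 points. The promoter share of the 1000 was 6.80%, 8.10% and 10.8% in parental and 12.1%, 12.2% and 18% in CTCF-degron lists, 5.53 points higher (exact permutation p = 0.1, adjusted 0.225). Leaving out CTCF-degron replicate 3 gave 3.58 points. With the 500 highest peaks the groups overlapped, at a difference of 4.13 points (exact permutation p = 0.3).

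Between ranks 2501 and 5000 promoters without a CTCF site were nearly absent from the parental lists, at 0.040%, 0% and 0.12% of peaks. In the CTCF-degron lists they made up 18.5%, 15.5% and 25.2% there, and distal peaks without a CTCF site a further 17.4%, 16.6% and 19.8%. Since a rank depends on the other peaks of its list, this describes the make-up of each list and not a change of any single site.

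**Figure D5:**
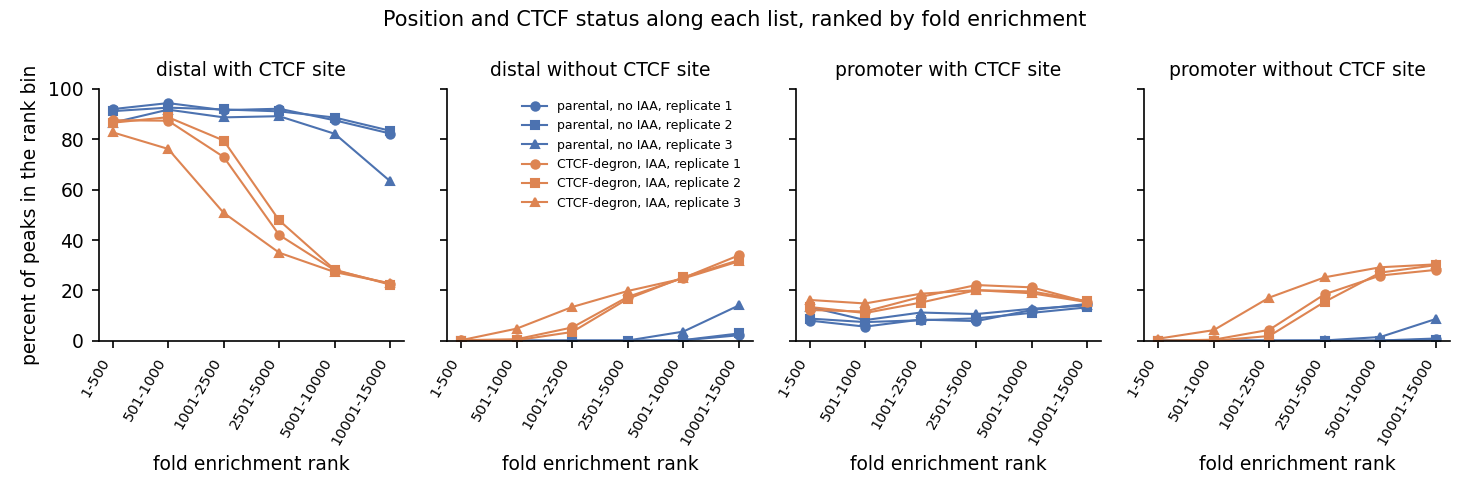
Percent of peaks of each class (y axis) in bins of fold enrichment rank (x axis, rank 1 is highest), 1 line per library. Parental lists hold at least 82.2% distal peaks with a CTCF site in every bin down to rank 10000, while CTCF-degron lists fall to 42.0%, 47.8% and 34.96% between ranks 2501 and 5000.

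Peak width at kept sites was compared between same-numbered lists. At distal sites with a CTCF site kept in all 3 lists, CTCF-degron peaks were narrower, with median log2 width ratios of -0.68, -0.33 and -0.69. The ratios were also below 0 at kept distal sites without a CTCF site (-0.52, -0.12 and -0.31). At kept promoter sites with a CTCF site they were -0.39, -0.068 and -0.41. Over whole lists the median peak width was 440, 320 and 303 bp in parental and 389, 335 and 237 bp in CTCF-degron libraries. At promoter sites without a CTCF site the ratios were -0.32, 0.17 and 0.00, with no common direction.

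Peaks without a partner were mostly parental. Between same-numbered lists, 59.9%, 56.1% and 68.4% of parental peaks had no overlapping CTCF-degron peak, and 16.2%, 25.7% and 38.8% of CTCF-degron peaks had no parental partner. The second share was 34.6 ± 7.91 points lower (SD, n = 3; exact sign-flip permutation p = 0.25, adjusted 0.2812), but the difference was -1.54 points once all lists had the length of the shortest and -6.93 ± 16.35 points (SD, n = 2) at equal human peaks. CTCF-degron peaks absent from every parental list numbered 5608, 1576 and 722, or 15.9%, 6.07% and 4.60% of their lists. Parental peaks absent from every CTCF-degron list numbered 39581, 20527 and 12115 (58.4%, 46.7% and 40.8%). The CTCF-degron peaks without any parental peak were weak in their lists, with median percentile ranks of 20.7, 21.2 and 25.0. A CTCF core was found in 1.91%, 2.38% and 1.18% of them, near the 1.57% of genome windows.

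Gained sites were few in the lists as deposited. Of 37561 merged CTCF-degron sites, 163 had a peak in all 3 CTCF-degron lists and in no parental list. Of the 158 with annotation, 54 (34.2%) lay at promoters, 38 in introns and 59 between genes. Parental CTCF sites overlapped 9 of the 163. The number of gained sites rests on single libraries and on list length. It was 1258 without parental replicate 1, whose list was the longest. Without CTCF-degron replicate 3, whose list was the shortest, it was 755. With all lists shortened to the shortest it was 4058 of 20983 merged sites, beside 6226 lost sites. At equal human peaks in replicates 2 and 3 it was 3119 of 16377, beside 6455 lost sites. The 4 gained sites ranked highest in the CTCF-degron lists as deposited lay near Gcom1, at the 3-prime end of Mrgpra3 and in introns of Me3 and Dera. Mrgpra3 is a sensory neuron receptor gene, and Me3 encodes the mitochondrial malic enzyme. At the Gcom1 site the Rad21 fold enrichment was 11.5, 11.8 and 5.08, and CTCF peaks were called in all 3 parental CTCF lists (3.505, 5.53 and 5.27) and all 3 CTCF-degron CTCF lists (7.24, 9.68 and 5.94). The Gcom1 and Mrgpra3 sites held the 2 core matches found among the 158 gained sites with annotation.

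Named sites were taken by parental rank within each class, and their fold enrichments are given beside list medians of 4.36, 5.39 and 4.82 (parental) and 4.52, 4.81 and 4.48 (CTCF-degron). Values of different lists are not on a common scale. Among lost distal sites with a CTCF site, the Stat3 site (chr11:100754477-100755383, overlapping an exon, 32679 bp from the start of Stat5a) had parental fold enrichments of 38.9, 31.2 and 16.2 and no CTCF-degron peak. CTCF had been called there at 17.3, 18.5 and 22.3 in parental cells and in no list after depletion. The Mrc1 site (chr2:14216511-14217661) had 34.1, 30.5 and 15.8, and the Sh3bp5 intron site (chr14:32198719-32199828) 27.3, 25.9 and 12.8. Those in Fbxl17, near Hif1an and in Clec1a were also lost, with parental means of 22.9 ± 8.30, 22.2 ± 8.39 and 21.8 ± 8.18 (SD, n = 3). All 6 had a Rad21 peak in both Rad21degron lists without IAA, none with IAA, and no CTCF peak in any CTCF list of CTCF-degron cells.

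Lost promoter sites named by the rule also had CTCF in parental cells. They lay near Tcea2 (890 bp from the start), Klhdc9 and Rltpr, with parental means of 19.03 ± 7.37, 18.1 ± 6.93 and 16.3 ± 4.58 (SD, n = 3 each). None of these had a CTCF peak left.

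Kept promoters without a CTCF site had lower parental values. Tbl1xr1 (chr3:21974834-21977859) had 11.6, 10.3 and 7.19 in parental and 11.2, 9.61 and 6.23 in CTCF-degron lists. Uspl1 had 9.20, 7.57 and 5.94, then 9.23, 8.30 and 5.17. Polr2e, a subunit shared by the RNA polymerases, had 7.82, 7.39 and 5.95, then 8.22, 7.15 and 5.08. All of these were above the median of their list. Ier5, Actr3 and Dclre1b, a DNA repair nuclease of telomeres, completed the 6, with CTCF-degron means of 6.45 ± 1.62, 5.89 ± 0.958 and 7.60 ± 2.30 (SD, n = 3 each). Ier5 and Polr2e had peaks in all 3 parental CTCF lists, at 3.49 to 4.41 and 3.59 to 4.04, that did not make up a shared CTCF site. Uspl1, Actr3 and Dclre1b also had a peak in the first Rad21degron list with IAA.

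Kept sites with a CTCF site were of several kinds. The promoter site of Cirbp, a cold-inducible RNA-binding protein, had parental values of 36.8, 34.4 and 17.2 and CTCF-degron values of 5.11, 6.73 and 5.265. Ccdc110 had 44.4, 33.0 and 17.8, then 13.6, 16.3 and 8.02. In the distal class the Mcoln2 intron site had 36.1, 34.1 and 22.5, then 4.59, 5.59 and 4.56, with no CTCF peak left, whereas the Pmepa1 intron site had 36.1, 31.6 and 17.6, then 13.4, 12.9 and 6.81, with CTCF still at 7.60, 12.1 and 8.74. At Mcoln2 and Cirbp the CTCF-degron values lay above their list medians by less than at the other two. The remaining kept sites named by the rule, at Gm10800, Gm10722, Chl1 and near Gm5614, had values from 249 to 34350 in every list. They were also called in both Rad21degron lists with IAA.

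Kept distal sites without a CTCF site lay in intergenic sequence near Tbl1xr1, Map3k1, a kinase upstream of JNK, Gm10293 and Cenpe, a mitotic kinesin. Their parental means ran from 7.66 to 10.7 and their CTCF-degron means from 6.03 to 9.04. CTCF peaks were called at each of them in CTCF-degron CTCF replicates 1 and 2, at 4.13 to 6.39.

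In the gene lists, few promoter sites were lost, as was also so over all promoter sites. Of all promoter sites 67.8% were kept in all 3 lists and 9.73% lost from all 3. Of all distal sites 26.8% were kept and 50% lost. For 23 B-lineage transcription factor genes, which direct B-cell fate, 30 promoter sites were found, of which 23 were kept in all 3 lists and 0 lost from all 3. The 81 other sites in or within 5 kb of these genes included 34 kept in all 3 lists and 26 lost from all 3. Ebf1, which specifies the B lineage, kept its promoter site at 4.575, 4.67 and 4.575 in parental and 4.58, 4.38 and 4.39 in CTCF-degron lists, while 3 of its 13 other sites were lost. Pax5, which commits cells to it, had 2 promoter sites, of which 1 was kept in all 3 lists and 0 lost. Counted by gene, it had a peak within 1000 bp of a start in 2 of the 3 CTCF-degron lists. It lost 3 of 6 other sites. Runx1 kept both promoter sites and lost 4 of 5 others. Spib had a promoter peak in 1 CTCF-degron list.

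Pre-B receptor and surface genes followed this, with 15 of 18 promoter sites kept and 0 lost, and 18 of 54 other sites lost. Of the surrogate light chain genes, Vpreb1 and Vpreb2 kept all their promoter sites, while the Igll1 promoter had no peak in CTCF-degron replicate 3. Kit had no promoter peak in any of the 6 lists. Among recombination and end-joining genes, 17 of 18 promoter sites were kept and 0 lost. The site of Dntt was counted as kept. By gene, Dntt had a peak within 1000 bp of a start in 2 parental lists and 1 CTCF-degron list. The Rag1 promoter had 4.49, 4.27 and 4.30, then 5.76, 5.33 and 3.99. Rag2 had 4.49, 4.48 and 4.46, then 4.56, 5.005 and 4.74, with a peak in all 6 lists at the locus of the deficient gene.

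For Abl, JAK-STAT and survival genes, 25 of 27 promoter sites were kept and 0 lost, and 20 of 46 other sites lost. Stat6 kept its promoter at 11.1, 13.35 and 8.20, then 12.5, 13.35 and 5.83, while Abl1 lost 4 of 4 other sites. Among genes of cohesin and its regulators, 11 of 14 promoter sites were kept and 0 lost, but 12 of 13 other sites were lost. Ctcf itself kept its promoter site (10.39, 9.895 and 7.13, then 4.71, 5.16 and 5.09) and lost 2 of 2 others. The cohesin subunit gene Smc3 did likewise, with 9.25, 11.2 and 7.24, then 5.10, 5.07 and 4.31. Mau2, a subunit of the cohesin loader, had 4.71, 4.52 and 3.965, then 7.86, 5.55 and 4.495. Over all sites, 67.8% of promoter sites were kept and 9.73% lost, and 50% of distal sites were lost. The lists are short and were not tested against these shares.

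Ribosomal protein genes, whose promoters are compact and among the most active in growing cells, differed in number of genes called. Of 80 genes, 77, 66 and 47 had a promoter peak in the parental lists and 77, 75 and 65 in the CTCF-degron lists. In all 3 lists it was 43 genes (53.75%) of parental and 65 (81.25%) of CTCF-degron cells, against 23.9% and 27.8% of all genes. Of their 45 parental promoter sites 39 were kept and 1, at Rpl14, was lost, and 20 of 30 other sites were lost. Counted by gene, Rpl14 still had a peak within 1000 bp of a start in CTCF-degron replicate 1 (5.03). In parental cells it had such a peak in 2 of the 3 lists. Rpl26 had 6.055, 6.42 and 4.15 in parental and 13.01, 10.4 and 7.14 in CTCF-degron lists. Rps3a had 4.33, 4.86 and 4.52, then 7.38, 8.175 and 6.46. Rps23, Rps28, Rps6 and Rpsa had a peak in parental replicate 1 alone and in all 3 CTCF-degron lists. These genes have many processed pseudogenes that share their exons, and how reads mapping to several places were treated is not given in the sources used here.

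Imprinted genes, expressed from 1 parental allele and in part controlled by CTCF, had few sites. Of 25 genes, 4 had a promoter peak in all 3 parental lists and 4 in all 3 CTCF-degron lists (16% each). Over all genes these shares were 23.9% and 27.8%. Of 19 other sites 5 were kept and 8 lost, against 26.8% kept and 50% lost of all distal sites. The lost included both sites of Rasgrf1 and the single sites of Cdkn1c, Kcnq1, Plagl1 and Zrsr1, whereas 3 of 4 sites at Grb10 were kept. The list was not tested against these shares.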

How the data were processed

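Rad21 ChIP-seq peak lists of 6 libraries were used, with the CTCF lists of parental and CTCF-degron cells and the Rad21degron lists as side measures. Reads were aligned to a hybrid of mm9 and a chromosome 12 sequence, per the labels, with Bowtie2 2.2.8 and SAMtools 1.8, per the submitters' processing notes. The peak caller, its threshold, the use of input and the treatment of reads with several map positions are not given in the sources used here. The deposited lists give a fold enrichment (ratio) per peak, its −log10 p and −log10 q, and a score equal to 10 times the −log10 q in whole numbers, all made by the authors for each library. They hold no counts, so depth is unknown and no counting interval was computed.

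Mouse peaks were merged and overlapped at 1 bp, and annotated with GENCODE starts on NCBIM37 (on chromosome 12 only below 110000000). Motifs were searched on both strands in the central 300 bp. Group values were compared by exact permutation over libraries and within-library differences by exact sign-flip, with Benjamini-Hochberg adjustment. No p could pass 0.05 (smallest 0.1 and 0.25). Named sites were the highest by mean percentile rank in each class, without chromosome 12 and without centres whose 31 bp recur in the reference; some results the rule would name are not reported here. Alternatives were thresholds on −log10 q (3) and fold (4), other promoter, motif and overlap windows, list lengths, site definitions and leaving out each library. The cut at equal human peaks, the removal of multi-copy sites and the splits by rank, width, CTCF lists and Rad21degron lists were added after seeing the data. Members, lists and rules were chosen with earlier results of these data known. Scripts were tested on simulated data. Python 3.11.15, NumPy 2.4.6, pandas 2.3.3 and matplotlib 3.10.9 were used.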

Additional observations from a re-analysis of the deposited data

How the results depend on the processing

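Of 203 recalculations, 177 kept the direction (and, for counts and percentages without a test, a value close to the original), 4 reversed and 22 moved. All 4 reversals concerned the number of genes with a promoter peak (log2 0.08), which was -0.4609 with a −log10 q of 3 or more, -0.01461 with promoters of 2500 bp, and -0.162 to 0.3043 on leaving out 1 library. It was below 0 without parental replicate 3 and without CTCF-degron replicate 1. The percent of parental sites kept (48.5) was 32.8 with a −log10 q of 3 or more, 20.97 with 50% of the site covered, 29.83 for sites of at least 1 parental list and 36.03 at equal human peaks. Lost sites (10377) numbered 6226 in lists shortened to the shortest, 15652 with 50% covered, 18458 and 40276 for sites of at least 2 and 1 parental lists, 6455 at equal human peaks, and 10406 to 18196 without 1 library, the highest without parental replicate 3. Sites kept in all lists (8888) numbered 2471 (−log10 q), 3757 (shortened), 1232 (50% covered) and 3412 (equal human peaks). Gained sites (163) numbered 61 (−log10 q), 705 (fold of 4 or more), 4058 (shortened), 1330 (spike-in libraries alone), 28 (50% covered), 3119 (equal human peaks), and 164 to 1258 without 1 library, the highest without parental replicate 1. The cause of these shifts was not tested. With the replicate block the promoter share difference was 17.11 points (exact sign-flip permutation p = 0.25) and the gene number 0.08 (same test, p = 0.5). The lowest p possible is 0.25 with the block and 0.1 without it. No result could therefore be called either way, and a change of call could not be tested. Across 73896 sites, which are not independent replicates, same-numbered libraries did not deviate together (r = -0.178, 0.0853 and -0.0934). Peak number did fall from replicate 1 to replicate 3 in both groups, and only replicates 2 and 3 of each held spike-in. Whether the numbers pair the libraries was not settled. Depth is unknown, so a site without a peak cannot be told from one below the authors' threshold.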
